A study of Mus musculus with 4 samples.

Results

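The Wnt genes described here are the ligands, the genes for ligand secretion, the receptors, the secreted modulators and a few feedback genes of the pathway, measured in fibroblasts of mouse mammary tumours. The rule for members names gene symbols and no measured value: protein-coding genes of the Wnt, Fzd, Sfrp, Dkk, Rspo and Lgr4 to Lgr6 families plus 15 named genes. Of the 22456 genes in the expression table, 53 are members, and 43 of these had a mean of at least log2 of 10 over the 4 libraries and were tested. A further 6 annotated genes fit the same symbols, but their identifiers were not found in the expression table, so they were not analysed here.

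Tumours were grown in Balb/cAnN mice from 4T1 cells, a mammary carcinoma line of that background, transplanted orthotopically into the fat pad. Before transplantation the 4T1 cells spent 5 days either in DMSO, the solvent (group DMSO, 2 libraries), or in 5 µM of GSK269962A, an inhibitor of the kinases ROCK1 and ROCK2 (group GSK, 2 libraries). Fibroblasts were obtained 8 days after injection as the cells left over when those bearing CD45, CD31, CD326 or human CD2 had been pulled out with magnetic beads. The compound was given to the cancer cells and the RNA came from host cells, so GSK and DMSO name the history of the tumour. Age of the animals, pooling and the source animal of each library are not given in the labels. The spread that enters each p-value is that between these 4 samples, drawn by limma toward the spread of tested genes at like levels. The spread between the samples may be technical.

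Wnt proteins are lipid-modified secreted ligands that act over short distances. Canonical signalling runs through Frizzled receptors with Lrp5 or Lrp6 and stabilises beta-catenin, which switches on feedback genes such as Axin2. Non-canonical ligands such as Wnt5a act mainly through Ror, Ryk and planar cell polarity proteins on cell shape and migration. Fibroblasts are a main stromal source of both Wnt ligands and their secreted antagonists.

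The authors deposited normalised log2 values, which run from -1.035 to 20.58, and depth is unknown because no read counts were given in the sources used here. Low genes vary little on this scale: the median range over the 4 libraries was 0.23 in tested members and 0.0315 in the 10 members below the filter. The label fibroblast matched the markers: all 10 fibroblast markers were tested, with list means of 15.25 to 15.34 per library. In limma 0 of these 10 were called and 2 had an unadjusted p under 0.05, but 4 differed by at least 0.2. Pdgfrb was at 0.33 (GSK minus DMSO, log2), Pdpn at -0.37, Dcn at -0.31 and Col3a1 at -0.30, which is as large as the differences of several members, and the part of such shifts in the members' differences was not tested. The surface proteins used for depletion were low, with Ptprc (CD45) at 3.77 to 3.91, Pecam1 (CD31) at 3.30 to 3.34 and Epcam (CD326) at 0.32 in each library. The filter was passed by 4 of the 11 leukocyte markers present, 5 of 8 endothelial markers and 3 of 9 epithelial markers. It was also passed by 2 of 3 adipocyte markers and 4 of 6 Schwann cell markers. Some of these were well above the filter: Cd3e had means of 8.77 in DMSO and 8.48 in GSK, Krt19 had means of 8.96 and 8.67, Csf1r ran from 8.14 to 8.39 and Tek from 7.52 to 7.73. Cd3e and Krt19 were lower in both GSK libraries. Of the adipocyte markers, Fabp4 ran from 9.50 to 9.64 and Plin4 from 4.44 to 4.48. Both were higher in both GSK libraries, by 0.0925 and 0.035. Pericyte and smooth muscle markers, which the depletion did not target, were all present, and 10 of 10 were tested. In all tests, 41 of 14548 genes (0.282%) passed an adjusted p of 0.05 in limma.

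Wnt5a was the only member called, 1.59-fold higher in GSK, and no member was called lower. The antagonists Sfrp4, Sfrp2 and Sfrp1 were 0.51, 0.38 and 0.32 (log2) lower in GSK, and Dkk3 was 0.55 higher, but these did not pass the threshold. So 1 of 43 tested members was called, against 0.282% of all tested genes in either direction and 0.151% in the higher direction. At an unadjusted p under 0.05 there were 13 members (30.2%), against 16% of all tested genes. In 18 members (41.9%) the groups were separate, with every GSK library above every DMSO library in 11 and below in 7. Over all tested genes these shares were 48.6%, 24.1% above and 24.5% below, so separation as such was no more frequent among members. With a difference of at least 0.2 added, 8 members (18.6%) remained against 6.37% of all tested genes. Members also varied more between replicates, which makes a fixed cut-off easier to pass. Their median absolute replicate difference was 0.0716 in DMSO and 0.118 in GSK, against 0.0462 and 0.0496 over all tested genes. The part of this spread in the larger share was not tested. Leaving out DMSO library 1 took the members called to 0 and all genes called to 7, and leaving out DMSO library 2 took them to 2 and 194. Without GSK library 1 they numbered 1 and 70, and without GSK library 2 they numbered 3 and 52. The median change of the tested members was 0.0002, beside -0.0007 over all tested genes.

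**Figure D1:**
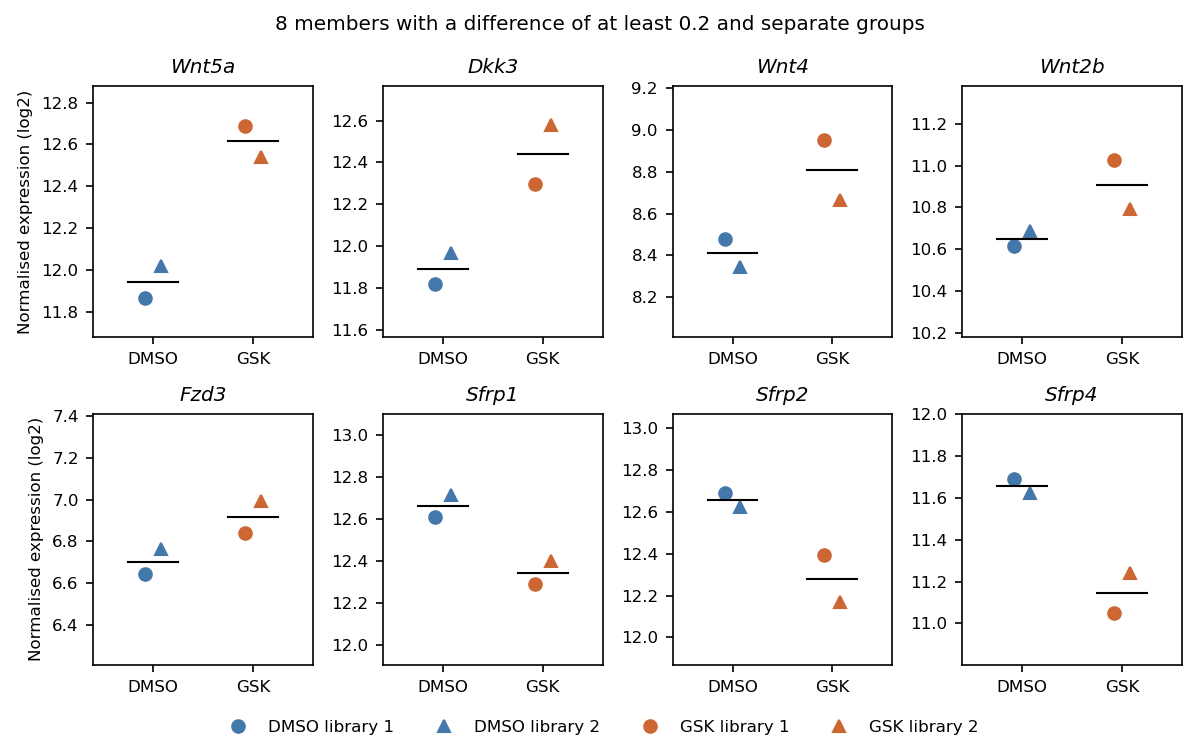
Normalised expression (log2, vertical axis) of the 8 members whose groups do not overlap and differ by at least 0.2, with each library as a point and the group mean as a line. Every panel spans the same height. Wnt5a, Dkk3, Wnt4, Wnt2b and Fzd3 lie higher in GSK, and Sfrp1, Sfrp2 and Sfrp4 lie lower. Wnt5a is the one past the threshold.

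To order members by level, the length of each gene's merged exons was taken out (log2 value per kb). On that scale secreted antagonists stood at the top. Sfrp2, a Frizzled-related decoy for Wnt ligands, was first of 53 at 11.36, followed by Dkk3 at 10.42, Sfrp1 at 10.38, the receptor Fzd1 at 9.84 and the atypical receptor Ryk at 9.78. Sfrp4 at 9.34 and Wnt5a at 9.31 came next, and these are closer than the spread of either over the libraries. Wls, which carries Wnt proteins to the cell surface, stood at 8.86, rank 10, or rank 5 with the length of the longest transcript. At the other end were Wnt10a at -0.33, Rspo4 at -0.66, Wnt9b at -1.02 and Wnt8b at -2.83. The 10 members below the filter were Wnt1, Wnt6, Wnt8b, Wnt9b, Wnt10a, Fzd9, Rnf43, Rspo1, Rspo2 and Rspo4, with means from -1.03 to 3.28. Closest to the filter were Rspo1 (3.28) and Fzd9 (3.16) below it, and Wif1 (3.90) and Sfrp5 (3.91) above it.

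**Figure D2:**
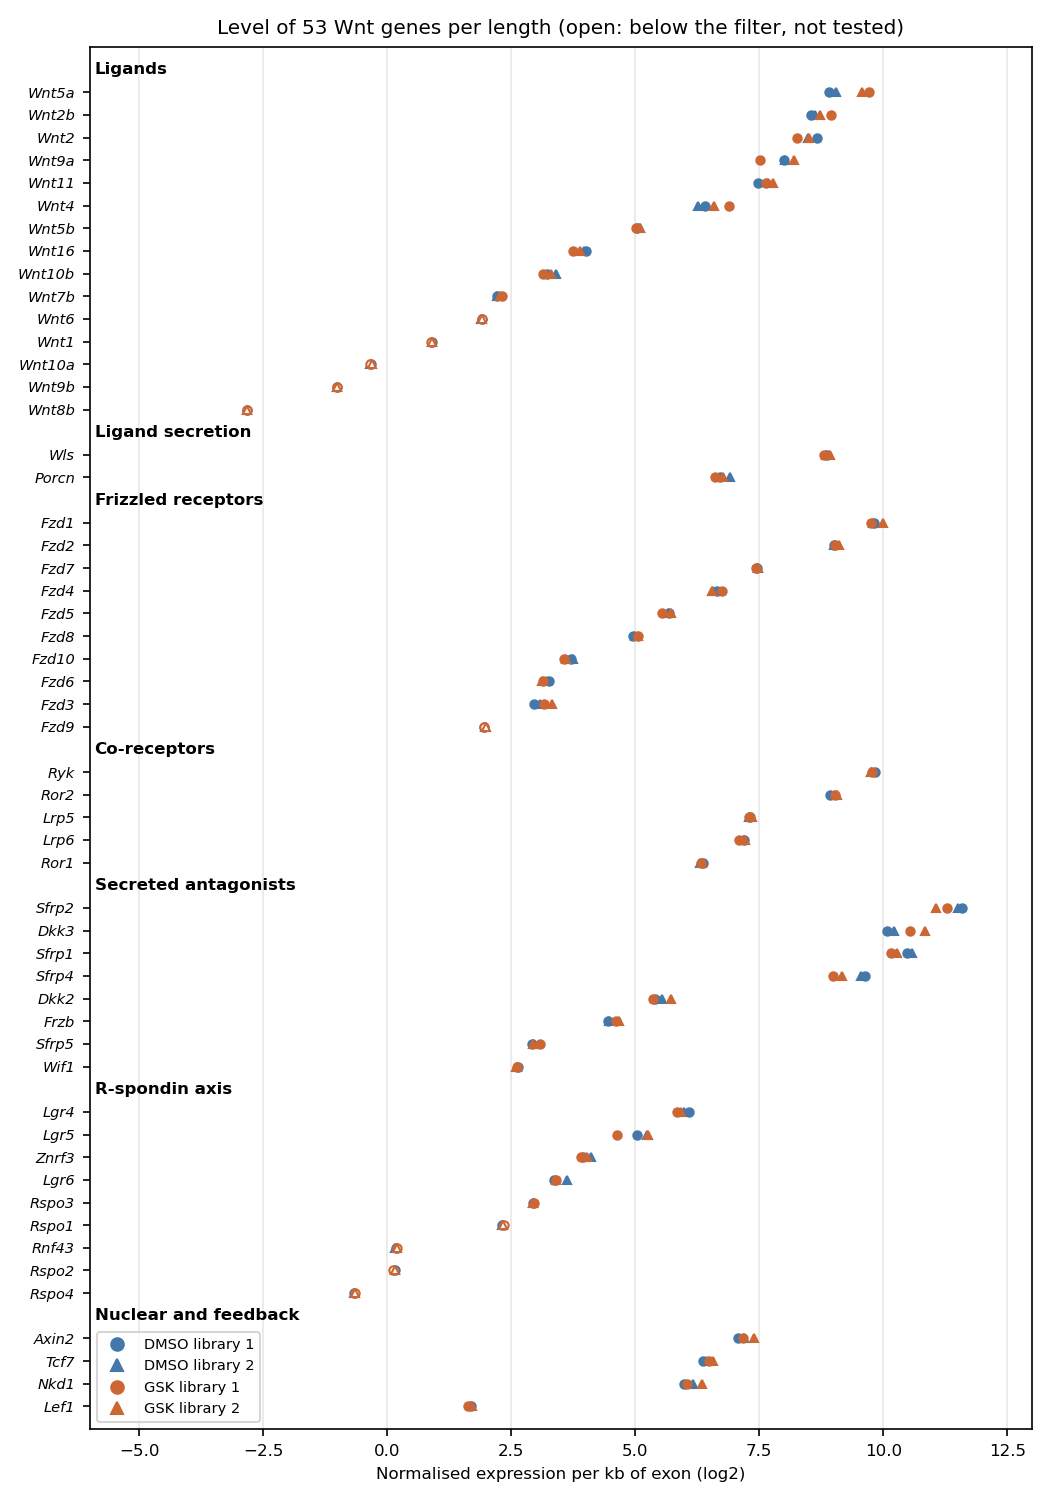
Level of each of the 53 members per kb of exon (log2, horizontal axis), grouped by role, with 1 point per library. Open points are members below the filter. Secreted antagonists reach the highest levels, from 11.36 for Sfrp2, and Wnt5a leads the ligands at 9.31.

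Among 15 ligands 10 were tested, and 4 of these lay above and 1 below in GSK in both libraries. Over all tested genes 24.1% lay above and 24.5% below. Wnt5a (ENSMUSG00000021994, GRCm38 chromosome 14, 28504750 to 28527448), the main non-canonical ligand, read 11.87 in DMSO library 1, 12.02 in DMSO library 2, 12.69 in GSK library 1 and 12.54 in GSK library 2. The groups are separate, and each differs internally by far less than the gap between them. The means were 11.94 ± 0.11 and 12.62 ± 0.11 (SD, n = 2 each), so Wnt5a rose by 0.67 ± 0.07 (SE, limma adjusted p = 0.0374). The call was lost without DMSO library 1 (0.111), without GSK library 1 (0.053), with a variance prior without trend (0.0655) and with no filter (0.222). Over the 10 alternatives that keep group as the only term the change was 0.598 to 0.747 and the adjusted p 0.0199 to 0.222. Of its 7823 exonic bases 358 overlap Gm2670 on the opposite strand, a gene at 6.30, and strandedness of the counting is not given.

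Pericyte and smooth muscle markers were in part higher where Wnt5a was. Of 10 markers, 4 lay above and 2 below in GSK in both libraries, where all tested genes had 24.1% above and 24.5% below. Those above were Cspg4, Mcam, Rgs5 and Myh11, and those below were Kcnj8 at -0.21 and Abcc9 at -0.12. In limma 0 of 10 were called and 5 had an unadjusted p under 0.05, against 16% of all tested genes. The summed level of the list was 15.37 and 15.67 in the DMSO pair and 15.67 and 15.76 in the GSK pair. DMSO library 1 was the lowest for both that sum and Wnt5a, but the highest was GSK library 2 for the sum and GSK library 1 for Wnt5a. Acta2, at 14.68 to 15.05, makes up most of the sum, and its groups overlap. Cspg4, a pericyte proteoglycan, was at 11.52 and 11.88 in DMSO and 12.14 and 12.24 in GSK. Among other cell types' lists, the summed level for epithelial markers ran from 9.07 to 9.13 in DMSO and from 8.73 to 8.93 in GSK. Krt19, at -0.29, makes up most of that sum. Krt18 at -0.07 and Krt8 at -0.04 were low in level, and Epcam and Cdh1 were below the filter. For leukocyte markers the sum ran from 9.54 to 9.83 in DMSO and from 9.41 to 9.56 in GSK. Cd3e at -0.30 and Csf1r at -0.12 make up most of it. Ptprc at 0.07 and Cd68 at 0.05 lay the other way, and the groups overlap in Csf1r, Ptprc and Cd68. The part of pericytes, smooth muscle cells, epithelial cells, leukocytes and adipocytes in the members' differences was not tested. In these bulk libraries fewer cells of a type and less RNA per cell cannot be told apart.

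Wnt4, a ligand of kidney and mammary development, had 8.48 and 8.34 in DMSO and 8.95 and 8.67 in GSK. Its groups are separate with GSK above, a difference of 0.40 ± 0.10 (limma adjusted p = 0.139), which was 0.255 without GSK library 1. Wnt2b, which signals through beta-catenin, had 10.62 and 10.69 in DMSO and 11.03 and 10.79 in GSK, a difference of 0.26 ± 0.08 (adjusted p = 0.199). GSK library 2 sat close to the DMSO pair, and without GSK library 1 the difference of Wnt2b was 0.14 where without GSK library 2 it was 0.375. Wnt16 was lower, with 6.13 and 6.10 in DMSO and 5.88 and 6.01 in GSK (-0.17 ± 0.05, adjusted p = 0.219), and its difference was -0.0956 without GSK library 1. Wnt7b was separate by a narrow margin at low expression, 4.52 and 4.52 against 4.61 and 4.56, and its difference of 0.07 was 0.0416 without GSK library 1.

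The other tested ligands overlapped between groups. Wnt2, a canonical ligand, had 9.85 and 9.66 in DMSO and 9.44 and 9.67 in GSK. Wnt9a had 9.74 and 9.76 in DMSO but 9.26 and 9.93 in GSK, so its spread sits within the GSK group, and it was called in no setting but the one without GSK library 2. Wnt11, a non-canonical ligand, had 9.52 and 9.73 in DMSO and 9.68 and 9.83 in GSK. Wnt5b, the closest relative of Wnt5a, had 6.44 and 6.51 in DMSO and 6.42 and 6.51 in GSK, nearly the same pair of values in both groups. Wnt10b ran from 4.90 to 5.16. Wnt5a stood above Wnt5b per kb by 3.91 in DMSO and 4.59 in GSK on the log2 scale.

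Expressed as a share of all ligand signal per kb, with log2 values turned back to linear ones, Wnt5a made up 25.8% and 27.9% in the DMSO libraries and 38.1% and 34.2% in the GSK libraries. Wnt2 made up 22.1% and 19.0% in DMSO and 13.9% and 16.2% in GSK, and Wnt2b between 19.0% and 22.4% in every library. Wnt5a thus led the ligands in each library. The summed ligand level per kb was 10.85 and 10.89 in DMSO and 11.11 and 11.12 in GSK (log2). Without Wnt5a the sum was 10.42 and 10.42 in DMSO and 10.42 and 10.52 in GSK, with hardly any gap between the groups. These shares and sums are descriptions of the 4 libraries. In an exact permutation test 2 libraries against 2 cannot go below a two-sided p of 0.333.

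The pair of genes that load and release Wnt ligands overlapped between groups. Wls had 12.01 and 11.98 in DMSO and 11.94 and 12.06 in GSK. Porcn, the acyltransferase that attaches the lipid, had 8.30 and 8.49 in DMSO and 8.19 and 8.35 in GSK.

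Secreted antagonists held the members closest to the threshold after Wnt5a, and limma called 0 of 8 while 5 had an unadjusted p under 0.05. Over all tested genes 0.282% were called and 16% had such an unadjusted p, and these shares are the background for each role group. Sfrp4 (chromosome 13, 19623104 to 19632994) had 11.69 and 11.63 in DMSO and 11.05 and 11.24 in GSK. Both GSK libraries lay well below, with means of 11.66 ± 0.04 and 11.15 ± 0.13 (SD, n = 2 each) and a difference of -0.51 ± 0.07 (SE, limma adjusted p = 0.0564). It passed without DMSO library 2 (0.049), without GSK library 2 (0.0356), with a robust prior (0.0434) and with the medians of the libraries set equal (0.0471). Its adjusted p ran from 0.0356 to 0.222 over the same 10 alternatives, and its change from -0.604 to -0.415.

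Sfrp1 (chromosome 8, 23411502 to 23449632) had 12.61 and 12.71 in DMSO and 12.29 and 12.40 in GSK, separate groups with a difference of -0.32 ± 0.06 (limma adjusted p = 0.0915). Sfrp2 (chromosome 3, 83766321 to 83774316) had 12.69 and 12.62 in DMSO and 12.39 and 12.17 in GSK. Its difference was -0.38 ± 0.08 (adjusted p = 0.106), and GSK library 2 was the lowest. The 3 abundant Sfrp genes together summed to 12.37 and 12.35 per kb in DMSO and 12.02 and 11.95 in GSK (log2). Sfrp5, at 3.85 to 4.01, overlapped between groups. An exon of Gm26771, at 1.32, overlaps 347 of the 2153 exonic bases of Sfrp2 on the opposite strand.

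Dkk3 and Frzb lay the other way. Dkk3 (chromosome 7, 112116017 to 112159057), a divergent Dickkopf protein whose role in Wnt inhibition is unsettled, had 11.82 and 11.97 in DMSO and 12.30 and 12.58 in GSK. The groups are separate, with a difference of 0.55 ± 0.10 (limma adjusted p = 0.0809). It was 0.403 without GSK library 2 and 0.688 without GSK library 1, and in the latter case passed the threshold (0.042), in a range over these alternatives of 0.042 to 0.283. Frzb, a further Frizzled-related decoy, had 6.14 and 6.16 in DMSO and 6.32 and 6.38 in GSK (0.20 ± 0.04, adjusted p = 0.109). Dkk2, which binds Lrp5 and Lrp6, had 7.29 and 7.42 in DMSO and 7.24 and 7.62 in GSK and overlapped. Wif1, a Wnt-binding inhibitor, stayed between 3.88 and 3.91.

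Within the antagonists' signal per kb, Sfrp2 held 47.7% and 45.1% in DMSO and 43.6% and 36.4% in GSK. Dkk3 held 16.7% and 18.3% in DMSO and 26.1% and 31.1% in GSK. All 8 antagonists summed to 12.65 and 12.66 in DMSO and 12.48 and 12.52 in GSK (log2 per kb), a smaller gap than for the Sfrp genes alone. That sum counts Dkk3, whose role in Wnt inhibition is unsettled. The order of Wnt5a and Sfrp4 differed between groups: the log2 ratio of Wnt5a to Sfrp4 per kb was -0.72 and -0.51 in DMSO and 0.73 and 0.39 in GSK, with means of -0.62 and 0.56. With longest transcripts the means were -0.51 and 0.68. Wnt5a stayed below Sfrp1 and Sfrp2 in all 4 libraries. Its mean log2 ratio to Sfrp1 was -1.56 in DMSO and -0.57 in GSK, and that to Sfrp2 was -2.58 and -1.53.

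**Figure D3:**
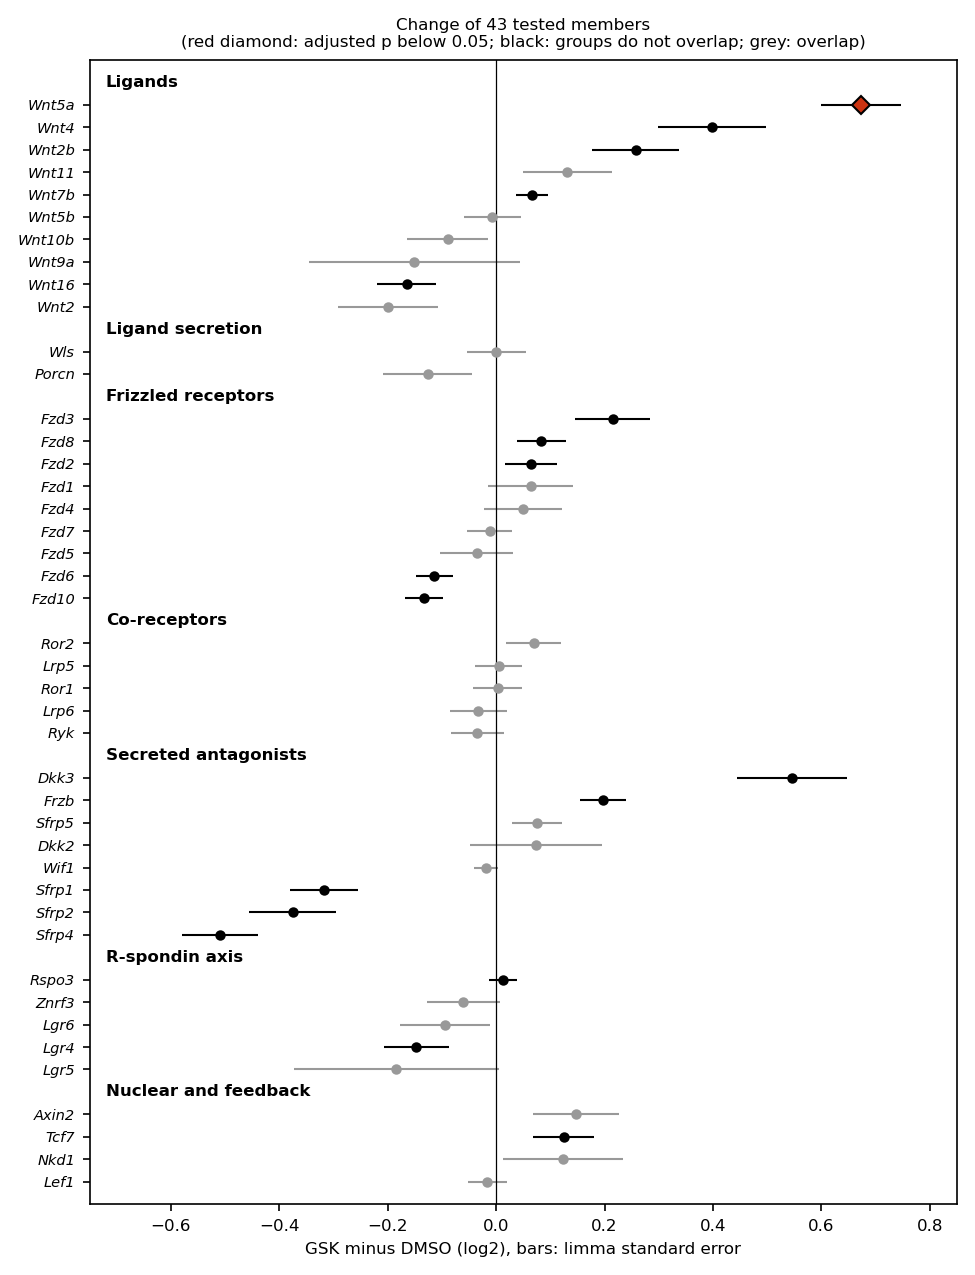
Difference of GSK from DMSO (log2, horizontal axis) for the 43 tested members by role, with limma's standard error as bars. The red diamond is Wnt5a at 0.67, the member with an adjusted p under 0.05. Black points have groups that do not overlap and grey points have groups that do. Sfrp4, Sfrp2 and Sfrp1 lie farthest to the left.

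Stretches upstream of 3 of these genes are shown to give the sequence around the start of an antagonist and of a ligand on each side of the comparison. Of the 53 members, 36 had usable windows of 300 bases (250 before and 50 after the start) in the RefSeq table of GRCm38.p6, 44 windows in all. Wnt5a, Sfrp1, Sfrp4, Dkk3 and Fzd3 were among those without a window, so nothing below on windows covers them. The reference strain differs from Balb/c. Only bases before any annotated exon are printed, 5′ to 3′ on the gene's strand, with each CpG in capitals. Sfrp2 lies at chr3:83766071-83766320 (plus strand), Wnt4 at chr4:137277385-137277488 (plus strand) and Wnt16 at chr6:22287977-22288226 (plus strand).
Sfrp2: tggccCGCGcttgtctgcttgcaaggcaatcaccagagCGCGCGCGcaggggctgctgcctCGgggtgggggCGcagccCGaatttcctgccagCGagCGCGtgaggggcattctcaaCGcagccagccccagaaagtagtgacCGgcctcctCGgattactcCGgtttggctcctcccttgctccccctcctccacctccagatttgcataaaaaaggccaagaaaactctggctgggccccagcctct
Wnt4: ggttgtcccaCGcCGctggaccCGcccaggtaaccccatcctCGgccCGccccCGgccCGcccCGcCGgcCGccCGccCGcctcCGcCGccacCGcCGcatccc
Wnt16: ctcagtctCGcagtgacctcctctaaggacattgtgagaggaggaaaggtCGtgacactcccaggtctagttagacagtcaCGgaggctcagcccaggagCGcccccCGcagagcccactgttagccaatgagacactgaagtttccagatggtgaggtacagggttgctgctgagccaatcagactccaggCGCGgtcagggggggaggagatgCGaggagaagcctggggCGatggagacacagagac

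The 104 bases before Wnt4 hold 16 CpG and are 83.7% G and C. The 250 bases before Sfrp2 also hold 16 CpG at 63.6%, and those before Wnt16 hold 9 at 59.2%. The windows of members had a median G and C content of 66.5% and a median of 23 CpG, against 57.0% and 14 in windows of all protein-coding genes. The core letters bound by TCF and LEF factors, which read CTTTGAA and in variants end instead as CTTTGAT or as CTTTGTA or else as CTTTGTT (either strand), occurred in 4 of 44 member windows (9.1%). They occurred in 14.5% of 20150 windows of protein-coding genes and in 16.9% of all 32851 windows. The 4 windows belong to Fzd7, Lef1, Wnt11 and Wnt5b, and none of the 3 stretches printed above holds a match. A match of letters is a description and not a site.

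Frizzled receptors differed little. In limma 0 of 9 tested receptors were called and 3 had an unadjusted p under 0.05, against 16% of all tested genes. Fzd3, a receptor of planar polarity, had 6.64 and 6.76 in DMSO and 6.84 and 6.99 in GSK, with GSK above (0.21 ± 0.07, adjusted p = 0.211). Without GSK library 2 its difference was 0.14. Fzd10 and Fzd6 were lower in both GSK libraries by small amounts: Fzd10 stood at 5.40 and 5.44 against 5.27 and 5.31 and Fzd6 had a mean of 5.52 in DMSO against 5.40 in GSK. Fzd8 and Fzd2 lay above in both GSK libraries, by 0.08 and 0.06. The difference of Fzd2 was 0.019 without GSK library 2 and 0.110 without GSK library 1.

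The most abundant receptors per kb were Fzd1, Fzd2 and Fzd7. Fzd1 had 11.89 and 11.86 in DMSO and 11.83 and 12.06 in GSK, and Fzd7 had 9.63 and 9.66 against 9.62 and 9.65. Fzd4 (9.31 to 9.50) and Fzd5 (8.34 to 8.52) overlapped too. The summed receptor level per kb was 10.82 and 10.81 in DMSO and 10.80 and 10.94 in GSK (log2).

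All 5 co-receptors overlapped between groups, with differences of -0.03 to 0.07. In limma 0 of 5 were called and 0 had an unadjusted p under 0.05. Ryk and Ror2, which bind Wnt5a, are tyrosine kinase-like receptors. Ryk had 12.02 and 11.94 in DMSO and 11.95 and 11.93 in GSK. Ror2 had 11.01 and 11.11 in DMSO and 11.11 and 11.15 in GSK. Lrp5 stayed between 10.57 and 10.63, Lrp6 between 10.87 and 10.99 and Ror1 between 8.83 and 8.89. Ryk and Ror2 thus overlapped between groups, where Wnt5a itself did not.

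The R-spondin axis amplifies Wnt signals by keeping the ubiquitin ligases Rnf43 and Znrf3 away from Frizzled receptors. Its ligands were low: Rspo3 was the one R-spondin tested, at 4.56 to 4.58, with a difference of 0.01 that was 0.0028 without GSK library 1 and 0.0213 without GSK library 2. Of the receptors, Lgr4 had 8.65 and 8.53 in DMSO and 8.40 and 8.49 in GSK, separate with GSK below (-0.15 ± 0.06, limma adjusted p = 0.302), or -0.0903 without DMSO library 1. Lgr5, a stem cell receptor, had 8.39 and 8.60 in DMSO and 8.00 and 8.61 in GSK, again with most of the spread inside the GSK pair. Lgr6 (6.14 to 6.40) and Znrf3 (6.90 to 7.08) overlapped. Of the 5 tested genes 0 were called by limma and 1 had an unadjusted p under 0.05, against 16% of all tested genes.

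Feedback and nuclear genes report on canonical signalling, and 0 of 4 were called by limma, with 0 at an unadjusted p under 0.05. Axin2, the standard feedback target of beta-catenin, had 9.54 and 9.65 in DMSO and 9.64 and 9.85 in GSK. The groups touch, since GSK library 1 lies just below DMSO library 2. Nkd1, which binds Dishevelled, had 8.16 and 8.35 against 8.22 and 8.54. Tcf7, a transcription factor of the pathway, had 7.76 and 7.84 against 7.87 and 7.97, separate by a small margin (0.12 ± 0.06, adjusted p = 0.353), or 0.0742 without GSK library 2. Lef1 was low, between 4.77 and 4.85.

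**Figure D4:**
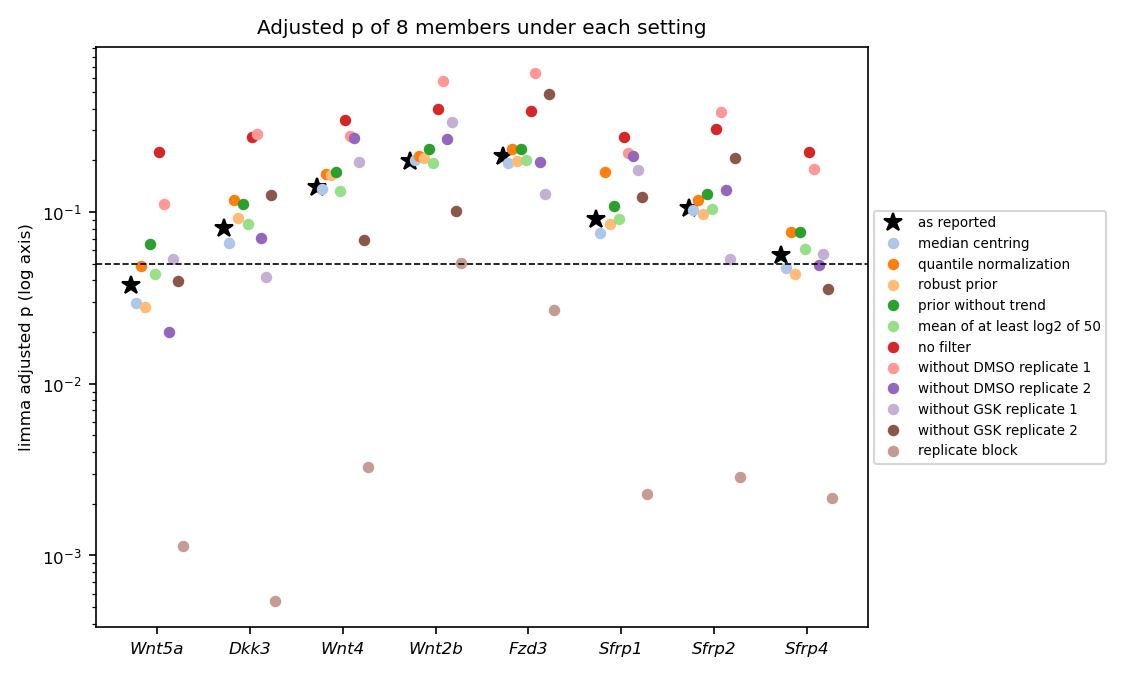
Adjusted p in limma (log axis) of the 8 members with a difference of at least 0.2 and separate groups, as reported (star) and under 11 alternatives. The dashed line is 0.05. Wnt5a lies below the line as reported, at 0.0374, and Sfrp4 just above it, at 0.0564. The lowest point of every gene is the fit with the replicate number as a term.

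Further genes of the pathway were taken from 6 lists, 105 genes of which 95 were tested. In limma 0 of 95 were called, and 21 had an unadjusted p under 0.05. In 15 both GSK libraries lay above, in 24 below and in 56 the groups overlapped, with a median difference of -0.01. All tested genes had 16% at that unadjusted p, 24.1% above and 24.5% below, and these shares are the background for each list that follows. Canonical target genes had the widest spread. Ccn5, a matricellular protein, had 11.99 and 12.03 in DMSO and 11.64 and 11.56 in GSK (-0.41 ± 0.05, adjusted p = 0.0504). Tbx3, a T-box factor, had 9.99 and 10.13 in DMSO and 10.48 and 10.52 in GSK (0.44 ± 0.06, adjusted p = 0.0543). Bambi, a pseudoreceptor, was at -0.28 ± 0.06 (adjusted p = 0.0892). Of 14 tested targets 3 lay above and 4 below, so they showed no shared direction, and their median was -0.03. Ccn5 passed with the robust prior (0.0386) and with medians set equal (0.0418), and Tbx3 in both of these and without DMSO library 2 (0.0234). Their adjusted p ranged from 0.0386 to 0.222 and from 0.0234 to 0.222 over the 10 alternatives.

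Other extracellular modulators included the heparan sulphate proteoglycan Gpc6, at 10.85 and 10.91 in DMSO and 11.15 and 11.13 in GSK (0.26 ± 0.05, limma adjusted p = 0.0703). Cthrc1, a secreted protein that favours Wnt binding to Frizzled and Ror2, had 12.76 and 12.67 in DMSO and 12.34 and 12.45 in GSK (-0.32 ± 0.06, adjusted p = 0.0874). Adgra2, an adhesion receptor, was at -0.18. Of these 14 tested genes 3 lay above, 6 below and 5 overlapped, with a median of -0.05.

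Intracellular genes had smaller differences. In the cytoplasmic list 4 of 20 lay above and 2 below, with a median that rounds to 0, and the smallest p belonged to Amer1 at 0.16, Csnk1a1 at -0.13 and Dvl1 at -0.09. Without DMSO library 1 Csnk1a1 was at -0.0777, after quantile normalisation at -0.0784, and without GSK library 1 Dvl1 was at -0.0569. Ctnnb1, beta-catenin itself, stayed between 13.06 and 13.14. In the nuclear list 2 of 15 lay above and 4 below, led by Tcf7l2 at -0.16, Ctnnbip1 at 0.13 and Tcf7l1 at -0.09. In the planar polarity list 3 of 19 lay above and 2 below, led by Daam1 at 0.19, Celsr3 at -0.16 and Ptk7, a receptor-like kinase of this branch, at 0.25. Ptk7 was at 0.157 without DMSO library 1, and Celsr3 at -0.104 without DMSO library 2. In the calcium branch 0 of 15 lay above and 6 below, against 24.1% and 24.5% of all tested genes, led by Prkca at -0.19, Nfatc2 at -0.32 and Camk2d at -0.16, with a median of -0.05. Without DMSO library 1 Nfatc2 was at -0.211. Rock1 and Rock2, the kinases that the compound is made to inhibit, overlapped between groups in the fibroblasts, at 10.53 to 10.79 and 11.63 to 11.76.

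**Figure D5:**
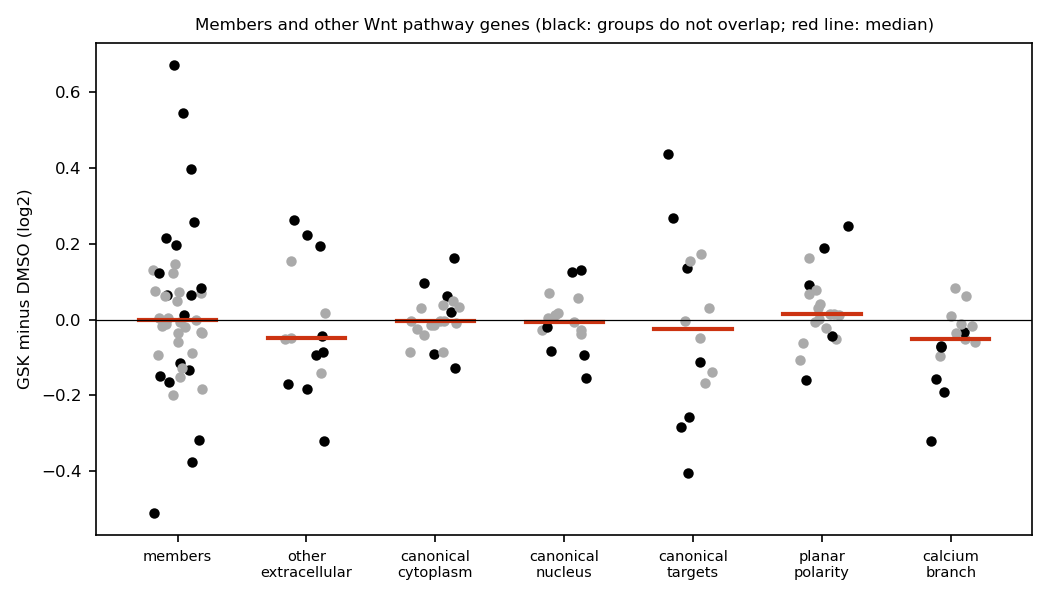
Difference of GSK from DMSO (log2, vertical axis) for the 43 tested members and the tested genes of 6 further pathway lists, 1 point per gene, black where the groups do not overlap. Red lines are medians, which lie between -0.05 and 0.01. Members and canonical targets reach the largest differences in either direction.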

How the data were processed

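The authors deposited 1 table of normalised log2 values, 1 column per library, and 0 columns were left unused. Tools listed without roles in the submitters' processing notes are DESeq2 1.12.4, Bowtie2 and RSEM 1.2.29, beside the builds mm10 and GRCh38. The transformation is not given in the sources used here, and log2 is the unit that the spread of values fits, with low genes varying little, as under a regularised logarithm. Symbols and places came from GENCODE M21 on GRCm38, which matched 22357 of 22456 identifiers. Groups followed the titles. Replicates differed, with a median absolute difference of 0.0462 in DMSO and 0.0496 in GSK.

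limma 3.58.1 in R 4.3.3 was fitted across all 14548 genes whose mean reached log2 of 10, with no pseudocount: group as the only term, variance prior following the mean, two-sided p-values, Benjamini-Hochberg adjustment, threshold 0.05. Members were described in full where called, or where groups were separate with a difference of at least 0.2, with the top 3 per role by level. Pathway lists gave up to 3 genes of smallest p. Members and lists were chosen with earlier results of these data known. Transcripts were compared with blastn 2.17.0 (98% identity over 200 bases) and exons with bedtools 2.31.1. Alternatives were filters, normalisations, variance priors, the replicate number as a term, and each library left out.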

Additional observations from a re-analysis of the deposited data

How the results depend on the processing

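The 18 members with separate groups kept their direction in all 194 values under the alternatives run, and the 18 pathway genes named kept theirs in all 198. Most of this was fixed in advance. The named pathway genes have separate groups too, and where groups are separate, leaving out a library cannot turn the direction. Filters, variance priors and the replicate block leave the difference itself unchanged. Only quantile normalisation and medians set equal could have turned it. Members called numbered 0 with no filter and with a prior without trend, 2 with medians set equal and with a robust prior (Sfrp4 and Wnt5a in both), and 0 (without DMSO library 1, Wnt5a lost) to 3 (without GSK library 2, Sfrp4, Wnt5a and Wnt9a) with a library left out. Without DMSO library 2 Sfrp4 and Wnt5a were called, and without GSK library 1 Dkk3 in place of Wnt5a. All genes called numbered 1 with no filter, 23 after quantile normalisation, 126 with medians set equal, 11 without trend, 138 with a robust prior, and 7 (without DMSO library 1) to 194 (without DMSO library 2), beside 70 without GSK library 1. Pathway genes called numbered 2 with medians set equal and with a robust prior (Ccn5 and Tbx3 in both), and 0 to 2 with a library left out (Nfatc2 and Tbx3 without DMSO library 2). With a library left out the lone sample of a group is assumed to vary like the other group. With the replicate block, 8 members (Dkk3, Frzb, Fzd3, Sfrp1, Sfrp2, Sfrp4, Wnt4 and Wnt5a), 16 pathway genes and 1374 of all genes were called. Deviations of libraries with the same number correlated at 0.428, but the labels do not say that the number marks a shared animal or day. The causes of these shifts were not tested. Depth is unknown, so the precision of low members is too.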

Other observations

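Members that lie side by side in the genome had unlike levels. Wnt10b and Wnt1 are neighbours on chromosome 15 (98770712 to 98778150 and 98789857 to 98793837, 11706 bases apart), and per kb they stood at 3.26 and 0.90 (log2). Wnt6 and Wnt10a on chromosome 1 (74771892 to 74785322 and 74791516 to 74804179, 6193 bases apart) stood at 1.91 and -0.33, both genes below the filter.

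Tested members varied more between replicates than the typical gene did. The median absolute difference between the libraries of a group was 0.0716 in DMSO and 0.118 in GSK for members, and 0.0462 and 0.0496 for all tested genes. GSK library 2 lay above GSK library 1 in 31 of 43 tested members, and DMSO library 2 above DMSO library 1 in 26. Wnt9a (9.93 and 9.26) and Lgr5 (8.61 and 8.00) differed most within the GSK group.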
